A study of Sus scrofa with 12 samples.

Results

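The WNT ligands, their Frizzled receptors and the secreted and intracellular proteins that tune the pathway were followed through the ovaries of 6 sows. The members were the rows of the gene table whose symbols name a WNT, FZD, SFRP, DKK, RSPO, LGR (4 to 6), ROR or AXIN gene, or CTNNB1, LEF1, TCF7, TCF7L1 or TCF7L2, and 53 of the 29884 genes in the table met this rule. They were 19 WNT ligands, 10 Frizzled receptors, 4 SFRP and 4 DKK antagonists, 4 R-spondins and 3 LGR receptors, 2 ROR receptors, 2 AXIN scaffolds, and CTNNB1 with the 4 LEF1/TCF factors. The rule reads symbols only.

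The samples were left ovaries of multiparous sows from a commercial herd, taken 4 days after the 4th delivery. ZD2, ZD3 and ZD12 came from sows with a small litter size (SLS, 8.48 ± 0.53 piglets per litter, the methods naming SEM as the error of results in general), and ZD5, ZD7 and ZD8 from sows with a large litter size (LLS, 16.19 ± 0.43 piglets per litter). The labels name no treatment, and both groups share the herd, the delivery number and the day. Each ovary gave 1 library of total RNA without ribosomal RNA, and expression is given as FPKM, fragments scaled to the length of the transcript and to the depth of the library.

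WNT proteins are lipid-modified ligands that bind Frizzled receptors, with LRP5/6 in the branch that keeps beta-catenin (CTNNB1) from being degraded and with ROR1 or ROR2 in branches that do not use beta-catenin. SFRP proteins bind WNT ligands, and DKK proteins such as DKK1 block LRP5/6. R-spondins act through LGR receptors to keep Frizzled proteins at the cell surface. In the ovary the pathway is known from female gonad development (WNT4, RSPO1), from the granulosa cells of follicles and from the corpus luteum.

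Sequences upstream of 4 members are shown. WNT5A and DKK2 were the members that separated the litter size groups most, and AXIN2 and LEF1 are textbook target genes of beta-catenin, picked because they carried the TCF/LEF letters in this window. Of the other members on the list of target genes used below, DKK1 also carried the letters, and TCF7 and LGR5 did not. Each window holds the 300 bases before the gene model's start in the RefSeq annotation of Sscrofa11.1, read 5′ to 3′ on the gene's own strand, and capitals mark ATCAAAG or TTCAAAG on either strand (CTTTGAT or CTTTGAA when read on the opposite strand).
WNT5A, chr13:37367216-37367515, minus strand: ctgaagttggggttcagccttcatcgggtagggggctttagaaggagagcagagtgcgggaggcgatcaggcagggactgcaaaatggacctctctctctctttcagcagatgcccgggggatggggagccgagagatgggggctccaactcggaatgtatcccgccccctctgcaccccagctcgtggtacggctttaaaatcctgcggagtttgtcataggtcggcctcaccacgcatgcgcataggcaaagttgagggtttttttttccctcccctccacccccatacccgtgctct
DKK2, chr8:114861756-114862055, plus strand: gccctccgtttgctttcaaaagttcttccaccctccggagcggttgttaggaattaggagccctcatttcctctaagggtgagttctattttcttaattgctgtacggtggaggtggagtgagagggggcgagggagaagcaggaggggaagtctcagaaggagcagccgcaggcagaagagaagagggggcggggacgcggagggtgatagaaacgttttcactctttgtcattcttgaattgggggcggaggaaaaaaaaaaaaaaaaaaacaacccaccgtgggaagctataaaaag
AXIN2, chr12:12343208-12343507, minus strand: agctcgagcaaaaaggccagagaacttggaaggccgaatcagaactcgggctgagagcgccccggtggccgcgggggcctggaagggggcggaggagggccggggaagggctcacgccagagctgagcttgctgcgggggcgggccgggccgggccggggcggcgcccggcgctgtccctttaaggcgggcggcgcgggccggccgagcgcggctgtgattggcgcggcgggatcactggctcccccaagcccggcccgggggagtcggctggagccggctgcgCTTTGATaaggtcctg
LEF1, chr8:113824211-113824510, plus strand: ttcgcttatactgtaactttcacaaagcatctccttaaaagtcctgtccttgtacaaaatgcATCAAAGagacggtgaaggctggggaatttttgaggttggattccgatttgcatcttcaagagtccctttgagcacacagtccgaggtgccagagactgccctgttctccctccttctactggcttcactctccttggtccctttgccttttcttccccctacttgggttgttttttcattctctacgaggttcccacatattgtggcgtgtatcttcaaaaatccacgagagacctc

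In AXIN2 the letters CTTTGAT lay 16 to 10 bases before the start (chr12:12343217-12343223), and in LEF1 the letters ATCAAAG lay 238 to 232 bases before it (chr8:113824273-113824279). The other two members with these letters were secreted antagonists, and the stretch around the match is given for each, minus strand in both.
DKK1, match at chr14:97490347-97490353, 235 to 229 bases before the start: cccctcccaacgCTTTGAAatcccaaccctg
SFRP4, match at chr9:108414605-108414611, 276 to 270 bases before the start: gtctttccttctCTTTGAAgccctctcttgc

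Thus 4 of 53 member windows (7.55%) held at least 1 match, beside 1394 of 19544 windows (7.13%) of protein-coding genes placed on a chromosome with no unread base in the window, so the letters were about as frequent before members as before these genes. The member windows were richer in G and C, with a median GC content of 66.7% against 56.7% over these windows. The windows of WNT5A and DKK2 held no match, which says only that these letters are not in this stretch.

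The library size read from the smallest steps of the FPKM values was 32272803 reads in ZD8 and between 51703531 and 60903268 in the other 5 ovaries. At these sizes 1 read in a transcript of 3000 bases weighed 0.0103 FPKM in ZD8 and at most 0.00645 FPKM elsewhere. ZD8, an LLS ovary, stood apart from the rest by its marker genes. The summed level of 6 luteal markers was 122.9 FPKM in ZD8 and 9167 to 12190 FPKM in the others, and all 6 (STAR and CYP11A1 among them) were lowest there. The 9 oocyte markers, all highest in ZD8, summed to 129.3 FPKM against 6.54 to 23.3 FPKM, and the 2 theca markers CYP17A1 and INSL3 to 415 FPKM against 9.31 to 74.5 FPKM. The 7 granulosa markers summed to 125.3 FPKM in ZD8 and to 240.2 FPKM in ZD12, an SLS ovary, against 19.5 to 59.1 FPKM in the other 4, with CYP19A1 at 0 in 5 of 6 ovaries. ZD12 was highest in INHBB (84.6 FPKM) and HSD17B1 (109 FPKM), whereas FOXL2, AMH and FSHR were highest in ZD8 and INHBA in ZD7. Endothelial markers summed to 143.4 FPKM in ZD8 against 288 to 424.9 FPKM, whereas the sums of stromal (2974 against 1804 to 6379 FPKM), smooth muscle (837 against 544 to 1375 FPKM), immune (42.6 against 29.9 to 50.9 FPKM) and surface epithelial markers (20.02 against 8.91 to 34.1 FPKM) lay inside the range of the others. Single genes of these lists did not: in ZD8 DCN was 2.16 times, TCF21 2.88 times and MYH11 4.04 times the highest of the others, COL1A1 and COL1A2 were lowest, and 5 of 6 immune markers were highest. The part of these marker levels in the results on ZD8 was not tested. In bulk tissue, fewer cells of a type and less RNA per cell cannot be told apart.

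The first question was whether the members differed between SLS and LLS ovaries. WNT5A was about 2.95-fold higher in LLS by the ratio of mean FPKM and DKK2 about 4.86-fold higher in SLS, and in both genes the 3 values of one group lay wholly above the 3 of the other. CTNNB1 also did not overlap, at a smaller distance. No member passed the test. Of 46 tested markers of cell types, limma called 0, and 2 had an unadjusted p below 0.05, beside 1.76% of all genes tested. Without overlap, 1 was higher in LLS (EPCAM, against 1.95% of all genes tested) and 2 were lower (LHCGR and PECAM1, against 3.17%), all named after their values were seen. The counts without overlap are near those of genes at large.

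EPCAM, an epithelial surface protein, was at 0.312, 0.339 and 1.28 FPKM in ZD2, ZD3 and ZD12 and at 27.8, 9.73 and 2.31 in ZD5, ZD7 and ZD8, with a limma adjusted p of 0.9994, and of 0.0221 without ZD8. LHCGR, the receptor of luteinizing hormone, was at 27.8, 70.5 and 46.1 FPKM in SLS and at 22.5, 24.2 and 10.4 in LLS. PECAM1, an endothelial adhesion protein, was at 87.7, 105 and 89.4 FPKM in SLS and at 49.0, 86.0 and 25.4 in LLS. EPCAM went against its list: by mean log2 level 4 of the 5 tested surface epithelial markers were lower in LLS, KRT19 among them. PECAM1 went with the larger part of its list, as the 6 endothelial markers split into 2 higher and 4 lower. LHCGR, over all 6 ovaries, went with its list. The 6 luteal markers were all lower in LLS, but without ZD8 they split into 3 higher and 3 lower, with SCARB1 and PTGFR higher in LLS without overlap, and the endothelial markers likewise into 3 and 3, with KDR and VWF higher without overlap. The part of these markers in the results on WNT5A, DKK2 and CTNNB1 was not tested.

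Of the 53 members, 51 were above 0 FPKM in at least 1 ovary, 38 reached 1 FPKM in at least 1 ovary and 23 did so in all 6. The test, limma on log2(FPKM + 1), took genes with at least 1 FPKM in 3 or more libraries, and these were 32 members and 12260 genes in all. At a Benjamini-Hochberg adjusted p below 0.05 and an absolute log2 fold change above 1, limma called 0 of the 32 members and 0 of all genes tested (0%), and voom on the recovered reads likewise called 0. An unadjusted p below 0.05 was reached by 2 members (WNT5A and DKK2) and by 216 genes, 1.76% of those tested. The adjusted p of every tested member was 0.9994. In direction, 22 members had a higher mean log2 level in LLS and 10 a lower one, with a median log2 fold change of 0.18 over the members and 0.02 over all genes tested. Of the 22, RSPO2, RSPO3, WNT2B, WNT4 and WNT6 had passed the filter only through ZD8, where they were high. Over the 27 members that passed it on the other 5 ovaries alone, 17 were higher and 10 lower, with a median of 0.11 (all genes 0.01). Without ZD8 the split turned to 8 higher and 19 lower among the 27 members then tested, with a median of -0.19 over the members and -0.10 over all genes.

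**Figure D1:**
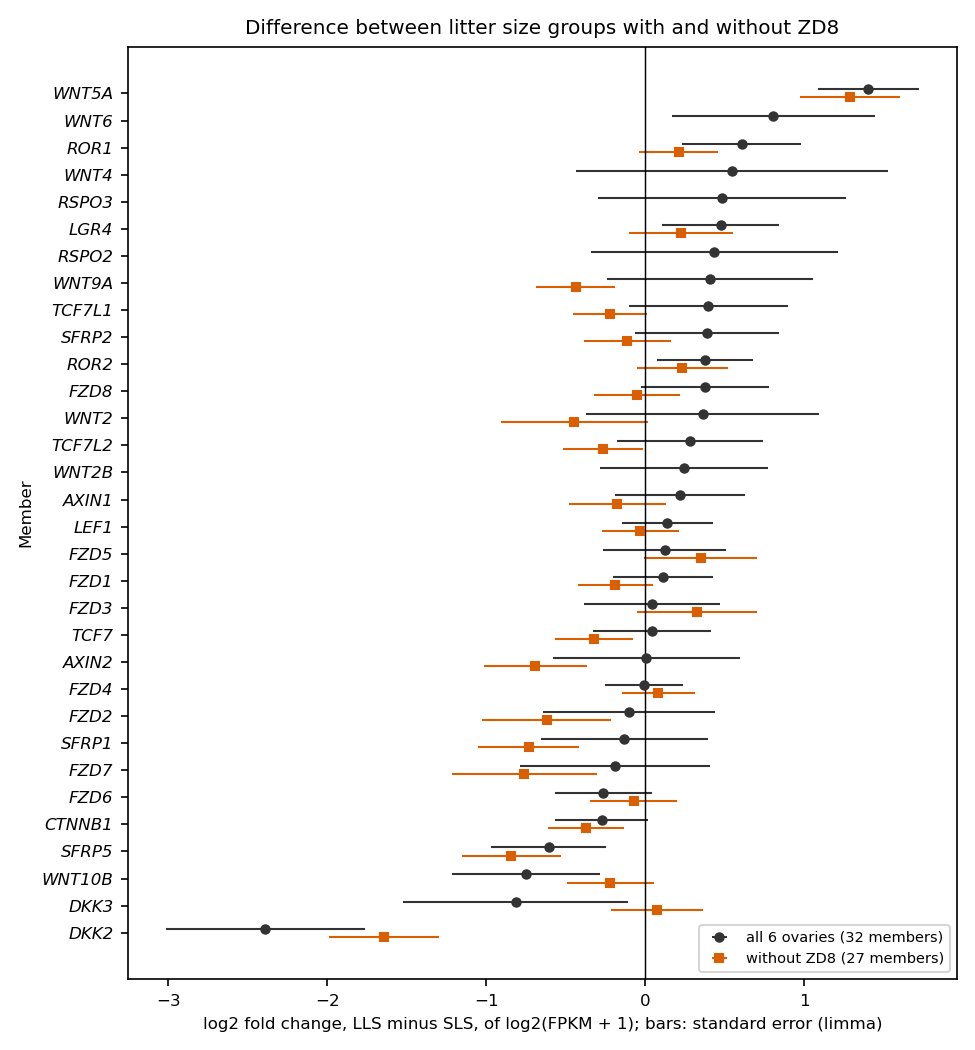
The log2 fold change of each tested member (horizontal axis, LLS minus SLS, difference of mean log2(FPKM + 1)) with its limma standard error, in black for all 6 ovaries and in orange without ZD8. WNT5A (1.41) and DKK2 (-2.39) lie at the ends in black and stay on their side in orange, while many members in between cross 0.

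Values of SLS and LLS that did not overlap were found in 1 member higher in LLS (WNT5A, where 1.95% of all genes tested were of this kind) and in 2 members lower in LLS (DKK2 and CTNNB1, where 3.17% were). With 5 ovaries, ZD8 left aside, the counts were 1 higher (7.44% of all genes) and 13 lower (11.7% of all genes). The 13 were AXIN2, CTNNB1, DKK2, FZD1, RSPO3, SFRP1, SFRP5, TCF7, TCF7L1, TCF7L2, WNT2B, WNT4 and WNT9A. RSPO3, WNT2B and WNT4 among them had passed the filter only through ZD8, and over the 27 members that passed it without ZD8 the counts were 1 higher (7.53% of all genes so filtered) and 10 lower (37.0%, against 11.5% of all genes so filtered). In 11 of the 13, all but CTNNB1 and DKK2, ZD8 was above ZD5 and ZD7 and made the groups overlap. With ZD8 left aside, 4 of 6 smooth muscle markers (ACTA2, MYH11, DES and CNN1) were also lower in LLS without overlap. This was 66.7%, against 11.7% of all genes, while 2 markers of the list had a higher mean log2 level in LLS. Of the 6 stromal markers 5 were then lower, DCN without overlap, and 1 was higher. The part of these markers in the counts was not tested.

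WNT5A, a ligand known mainly for signalling without beta-catenin, was the most abundant WNT in 5 of 6 ovaries. Its level was 6.13 FPKM in ZD2, 3.57 in ZD3 and 6.41 in ZD12, and 17.9 in ZD5, 11.3 in ZD7 and 18.4 in ZD8. All 3 LLS ovaries were above all 3 SLS ovaries, and here ZD8 lay beside ZD5. The means were 5.37 ± 1.57 FPKM in SLS and 15.9 ± 3.98 FPKM in LLS (SD, n = 3 each), and an exact two-sided permutation test gave p = 0.1, the smallest that 3 against 3 allows. The log2 fold change was 1.41 with a standard error of 0.32 (limma, adjusted p = 0.9994). It was 1.29 with a standard error of 0.31 without ZD8 (limma, adjusted p = 0.217).

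**Figure D2:**
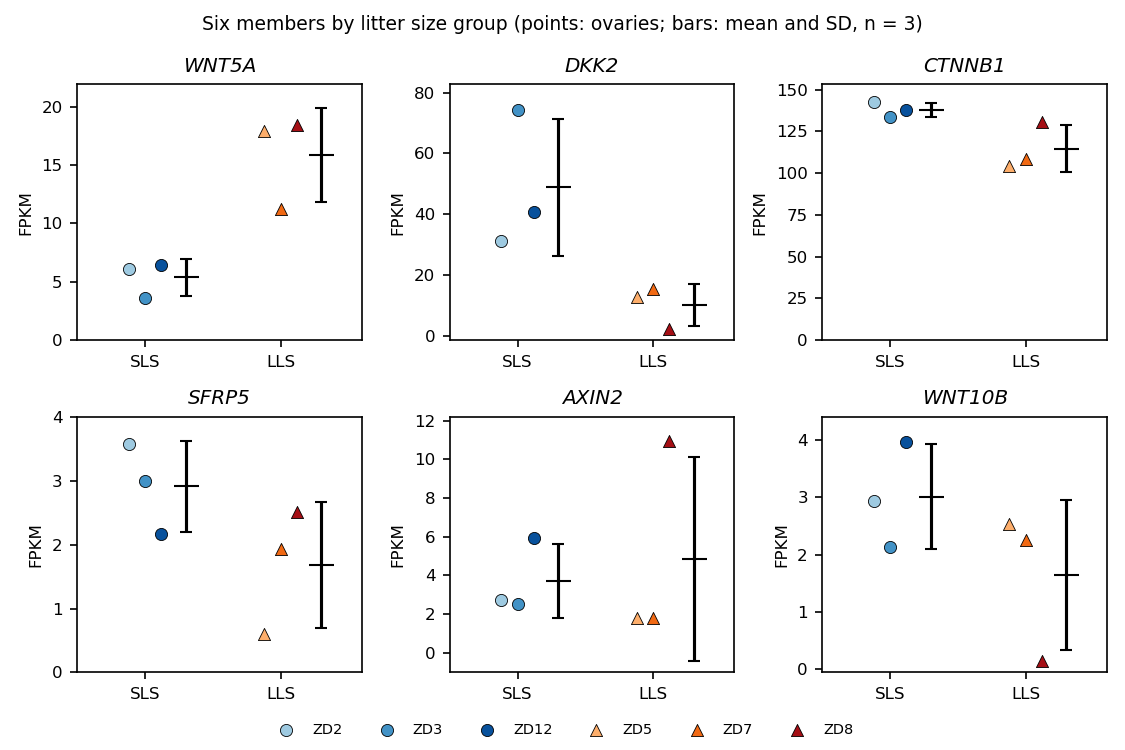
FPKM of 6 members (vertical axes) by litter size group, each point an ovary and each bar the mean with the SD of n = 3. The WNT5A points of LLS (11.3 to 18.4) lie above those of SLS (3.57 to 6.41), those of DKK2 below, and in AXIN2 and WNT10B the ovary ZD8 lies far from the other LLS ovaries.

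In most of the other tested ligands ZD8 was the highest ovary, but WNT2B, WNT4 and WNT6 had passed the filter only through ZD8. Of the 4 ligands that passed it on the other 5 ovaries, WNT5A included, ZD8 was highest in 3. This was 75.0%, against 43.7% of all genes so filtered. WNT4, a ligand needed for the female gonad, stood at 1.74, 0.801 and 4.12 FPKM in ZD2, ZD3 and ZD12, at 0.724 and 0.774 in ZD5 and ZD7, and at 24.7 in ZD8. That is 5.99 times the highest of the other 5 ovaries, and the groups overlapped. WNT9A was measured at 1.95, 1.86 and 2.86 FPKM in the SLS ovaries and at 1.28, 1.45 and 12.7 in ZD5, ZD7 and ZD8. WNT6 was at 0.856, 0.480 and 2.31 FPKM in SLS and at 0.917, 1.43 and 9.46 in LLS.

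WNT2, a ligand that signals through beta-catenin, was at 0.820, 1.01 and 5.17 FPKM in ZD2, ZD3 and ZD12 and at 1.05, 1.10 and 10.1 in ZD5, ZD7 and ZD8. Here ZD12 was also well above the other 4. WNT2B was at 1.27, 0.882 and 1.67 FPKM in SLS and at 0.606, 0.794 and 5.55 in LLS. WNT7A was at 0.0864, 0.0299 and 0.708 FPKM in SLS and at 0.0967, 0.183 and 3.56 in LLS, and WNT5B, the paralogue of WNT5A, at 0.447, 0.181 and 0.699 in SLS and 0.413, 0.551 and 1.57 in LLS. In both genes ZD8 was the only ovary above 1 FPKM and ZD12 came next, so neither was tested.

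WNT10B went the other way. It stood at 2.93, 2.13 and 3.97 FPKM in ZD2, ZD3 and ZD12, at 2.54 and 2.25 in ZD5 and ZD7, and at 0.127 in ZD8, where it rested on 20 reads. The lowest of the other 5 was 16.9 times the level of ZD8. Its log2 fold change was -0.75 with a standard error of 0.47 (limma, adjusted p = 0.9994), and -0.22 without ZD8.

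The gene model of WNT10B (chr5:14997377-15013928, minus strand) overlaps that of WNT1 (chr5:15010607-15015007, plus strand) by 3322 bases. The library kit marked strand, but the strand setting of the counting is not given in the sources used here, so reads in the shared stretch cannot be told apart between them. WNT1 had 5, 4 and 9 reads in ZD2, ZD3 and ZD12, 49 and 42 in ZD5 and ZD7, and 1 in ZD8, with a highest level of 0.343 FPKM.

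The remaining ligands stayed below 1 FPKM in every ovary. WNT11 lay between 0.321 and 0.975 FPKM, WNT16 reached 0.898 in ZD12 and at most 0.211 elsewhere, and WNT3 reached 0.693 in ZD8 and at most 0.227 elsewhere. WNT7B (at most 0.251), WNT9B (at most 0.149), WNT10A (at most 0.0793, from 6 reads) and WNT8B (at most 0.0297) were lower still. WNT3A and WNT8A had no read in any library, which allows at most 0.034 and 0.0146 FPKM (3 reads) in the shallowest library, counting error only.

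**Figure D3:**
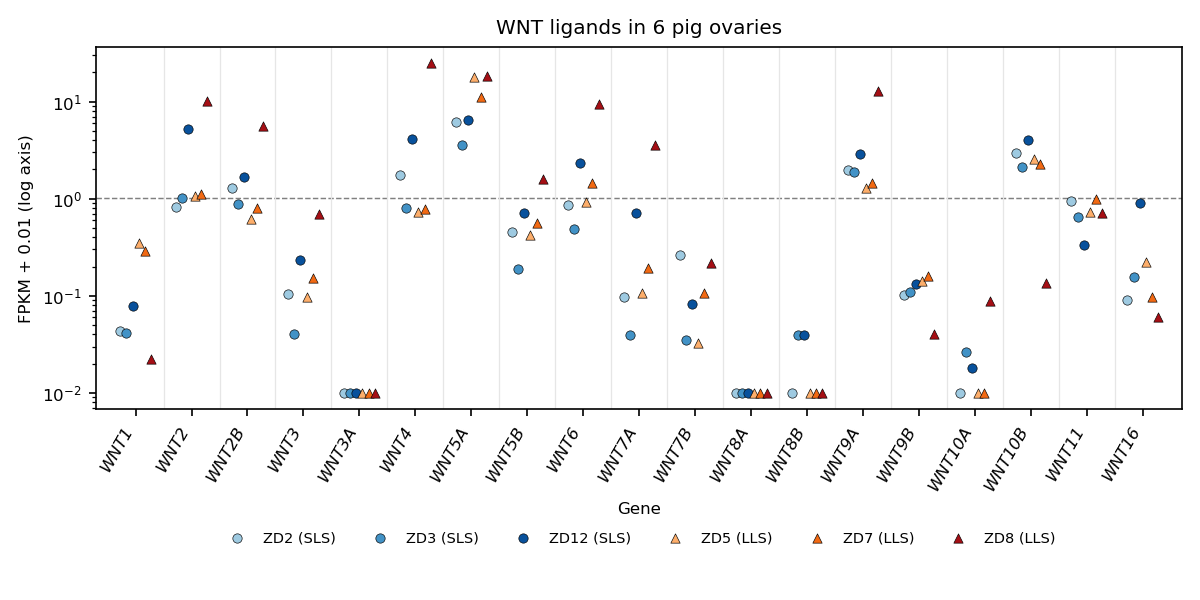
FPKM of the 19 WNT ligands (vertical axis, log scale, 0.01 added so that 0 can be drawn) in each ovary, circles for SLS and triangles for LLS, with a broken line at 1 FPKM. ZD8 (dark red) is the top point of WNT2, WNT2B, WNT4, WNT6, WNT7A and WNT9A, ZD12 (dark blue) is next in each of them, and WNT5A is the ligand with all 3 LLS points on top.

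Added up, the 19 ligands came to 17.7, 11.96 and 29.7 FPKM in ZD2, ZD3 and ZD12, to 27.0 and 21.5 in ZD5 and ZD7, and to 88.0 in ZD8. WNT5A made up 34.6%, 29.8% and 21.6% of this sum in the SLS ovaries, 66.2% and 52.3% in ZD5 and ZD7, and 20.9% in ZD8. In ZD8 its level was as high as in ZD5, but WNT4 alone took 28.0% of the sum, against 2.68% to 13.9% elsewhere.

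In all 8 Frizzled receptors tested the log2 fold change was smaller than its standard error, which with 3 ovaries per group does not show that the groups were alike. Without ZD8, 3 of the 8 were higher and 5 lower in LLS, FZD1 without overlap (as 11.7% of all genes tested were). FZD2 and FZD7, both lower, then had a log2 fold change larger than its standard error. FZD4, the receptor known for a role in vessels and the corpus luteum, had the highest mean, at 28.1, 29.6 and 33.9 FPKM in ZD2, ZD3 and ZD12 and 32.8, 31.7 and 26.7 in ZD5, ZD7 and ZD8. The groups overlapped throughout, and its log2 fold change was -0.0066 with a standard error of 0.25 (limma, adjusted p = 0.9994), and 0.08 without ZD8. FZD7 varied most among the well-expressed receptors, at 29.3, 8.82 and 23.8 FPKM in SLS and 7.60, 14.4 and 36.6 in LLS.

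FZD1 was at 11.01, 10.93 and 12.77 FPKM in the SLS ovaries and at 10.01, 10.01 and 19.59 in ZD5, ZD7 and ZD8. FZD8 was at 6.51, 4.95 and 7.28 FPKM in SLS and at 5.03, 6.98 and 15.8 in LLS, and it was the one Frizzled gene that ZD8 held more than 2-fold above all others (2.18 times the highest). FZD2 was at 11.7, 3.53 and 7.99 FPKM in SLS and at 3.44, 5.17 and 14.4 in LLS. In these 3 genes ZD8 was the highest ovary.

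In FZD3, FZD4 and FZD6 ZD8 was the lowest instead. FZD3 was at 2.37, 6.95 and 2.72 FPKM in ZD2, ZD3 and ZD12 and at 5.87, 3.93 and 2.25 in ZD5, ZD7 and ZD8. FZD6 was at 8.27, 12.9 and 8.31 FPKM in SLS and at 9.40, 8.82 and 5.81 in LLS. FZD5 was at 8.16, 11.3 and 18.6 FPKM in SLS and 20.3, 11.9 and 9.38 in LLS, with ZD8 inside the range.

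FZD9 (at most 0.534 FPKM) and FZD10 (at most 0.625) stayed below 1 FPKM in every ovary. The sum over the 10 receptors ranged from 89.3 to 116 FPKM in the 5 other ovaries and was 132 FPKM in ZD8, a far narrower range than that of the ligands. FZD4 was the largest part in ZD3, ZD12, ZD5 and ZD7 (29.2% to 34.7%), whereas FZD7 was in ZD2 (27.7%, FZD4 26.5%) and in ZD8 (27.8%, FZD4 20.2%).

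ROR1 and ROR2, receptor kinases that bind WNT5A, were both highest in ZD8. ROR1 was at 4.84, 6.12 and 5.31 FPKM in ZD2, ZD3 and ZD12 and at 5.93, 6.94 and 15.9 in ZD5, ZD7 and ZD8, so that ZD5 overlapped with the SLS ovaries. Its log2 fold change was 0.61 with a standard error of 0.37 (limma, adjusted p = 0.9994), and 0.21 without ZD8. ROR2 was at 7.02, 4.12 and 4.21 FPKM in SLS and at 5.74, 6.35 and 8.51 in LLS, with ZD2 above ZD5 and ZD7.

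**Figure D4:**
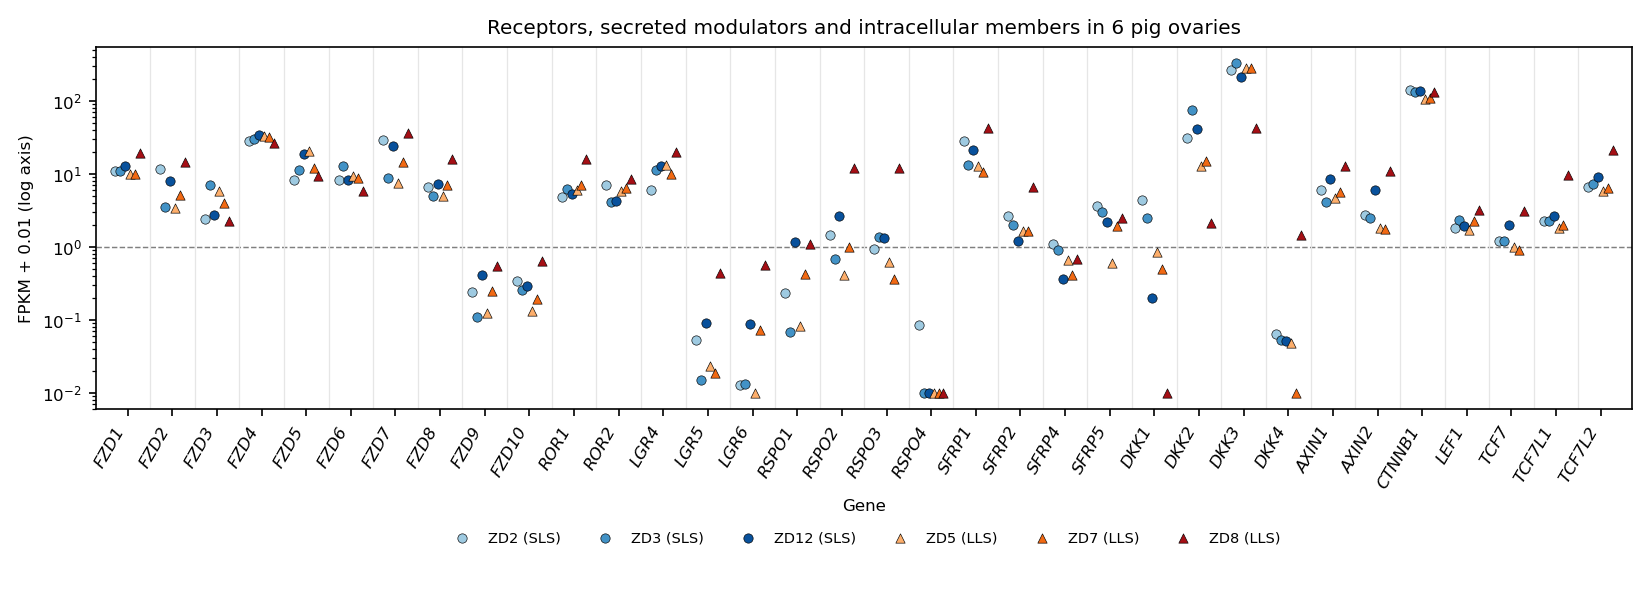
FPKM of the receptors, R-spondins, antagonists and intracellular members (vertical axis, log scale, 0.01 added) in each ovary, circles for SLS and triangles for LLS, with a broken line at 1 FPKM. DKK3 and CTNNB1 are the 2 highest except in ZD8, where CTNNB1 (131) is still the highest but SFRP1 (43.1) lies beside DKK3 (43.0). RSPO2 and RSPO3 in ZD8 (12.1 each) stand clear of the other ovaries, and DKK2 and DKK3 are lowest in ZD8.

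Among the secreted antagonists the DKK genes were lower in ZD8, with the exception of DKK4, and the SFRP1 and SFRP2 genes higher. DKK2, a modulator that binds LRP5/6, was at 31.1 FPKM in ZD2, 74.4 in ZD3 and 40.9 in ZD12, and at 12.7 in ZD5, 15.2 in ZD7 and 2.15 in ZD8. All 3 SLS ovaries were above all 3 LLS ovaries, and ZD8 was the lowest. The means were 48.8 ± 22.7 FPKM in SLS and 10.05 ± 6.95 FPKM in LLS (SD, n = 3 each; exact two-sided permutation p = 0.1).

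The log2 fold change of DKK2 was -2.39 with a standard error of 0.63 (limma, adjusted p = 0.9994). It was -1.64 with a standard error of 0.35 without ZD8 (limma, adjusted p = 0.143), with the direction kept. DKK3, a divergent member of the family, was at 267, 326 and 213 FPKM in ZD2, ZD3 and ZD12, at 279 in both ZD5 and ZD7, and at 43.0 in ZD8. Its log2 fold change was -0.82 with a standard error of 0.71 (limma, adjusted p = 0.9994) and turned to 0.07 without ZD8.

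DKK1, the classical LRP5/6 blocker, was at 4.41, 2.49 and 0.189 FPKM in ZD2, ZD3 and ZD12 and at 0.846 and 0.492 in ZD5 and ZD7. It had no read in ZD8, which allows up to 0.116 FPKM (3 reads). DKK4 was at most 0.0543 FPKM in 5 ovaries and 1.43 FPKM in ZD8, from 84 reads. The highest DKK1 value was thus in ZD2 and the highest DKK4 value in ZD8, and neither gene was tested.

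SFRP1 was at 27.9, 13.2 and 21.5 FPKM in the SLS ovaries and at 12.6, 10.6 and 43.1 in ZD5, ZD7 and ZD8. SFRP2 was at 2.65, 1.96 and 1.18 FPKM in SLS and at 1.64, 1.67 and 6.52 in LLS. SFRP5 was at 3.58, 2.99 and 2.16 FPKM in ZD2, ZD3 and ZD12 and at 0.594, 1.92 and 2.52 in ZD5, ZD7 and ZD8, so that only ZD8 reached into the SLS range.

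The log2 fold change of SFRP5 was -0.61 with a standard error of 0.36 (limma, adjusted p = 0.9994), and -0.84 with a standard error of 0.31 without ZD8 (limma, adjusted p = 0.632). Without ZD5, the lowest ovary, it was -0.27. SFRP4 was at 1.10, 0.9001 and 0.352 FPKM in SLS and at 0.657, 0.401 and 0.667 in LLS. DKK3 made up 76.3% to 90.6% of the summed level of the 8 antagonists in 5 ovaries and 43.2% in ZD8, where SFRP1 took 43.4% against at most 8.25% elsewhere. The sum itself was 99.4 FPKM in ZD8 and 279.7 to 421.5 FPKM in the others, so the shares in ZD8 are of a smaller sum.

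**Figure D5:**
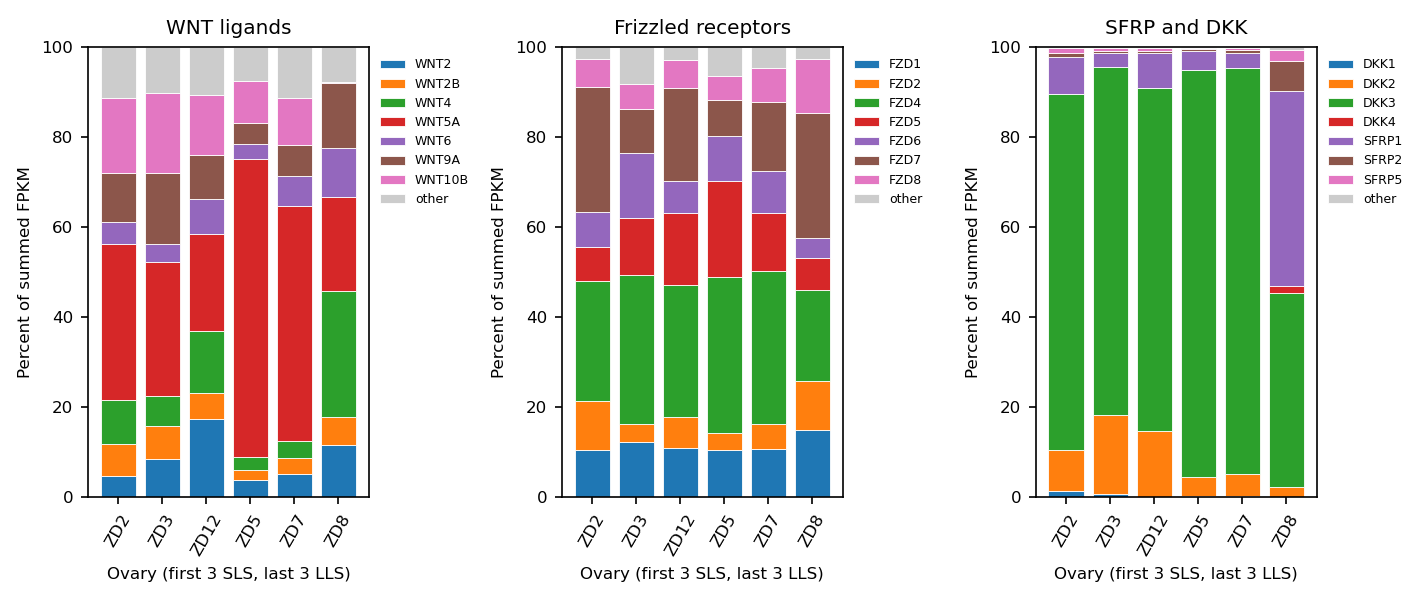
Share of each member in the summed FPKM (vertical axis, percent) of the WNT ligands, the Frizzled receptors and the SFRP and DKK antagonists, 1 bar per ovary. WNT5A fills most of the ZD5 (66.2%) and ZD7 (52.3%) ligand bars, FZD4 takes 20.2% to 34.7% of the receptor bars, and in ZD8 SFRP1 (43.4%) and DKK3 (43.2%) take like shares.

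RSPO2 and RSPO3 were among the members with the largest distance between ZD8 and the rest, while RSPO1 and RSPO4 were not. RSPO3 was at 0.932, 1.35 and 1.30 FPKM in ZD2, ZD3 and ZD12, at 0.608 and 0.357 in ZD5 and ZD7, and at 12.1 in ZD8, which is 8.95 times the highest of the others. RSPO2 was at 1.44, 0.663 and 2.64 FPKM in SLS and at 0.405, 0.991 and 12.1 in LLS, with ZD8 4.58 times the highest of the others. The longest gene models of RSPO2 and RSPO3 have 729 and 828 bases, and their levels per length rest on these short models.

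RSPO1, an R-spondin known from ovary development, was at 0.223, 0.0575 and 1.15 FPKM in ZD2, ZD3 and ZD12 and at 0.0738, 0.412 and 1.09 in ZD5, ZD7 and ZD8. Here ZD12 and ZD8 were alike and above the other 4. RSPO4 had 4 reads in ZD2 and none elsewhere.

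LGR4 was the main R-spondin receptor in every ovary, with at least 95.3% of the summed LGR level. It was at 5.98, 11.4 and 12.7 FPKM in ZD2, ZD3 and ZD12 and at 13.1, 9.83 and 19.96 in ZD5, ZD7 and ZD8, with a log2 fold change of 0.48 and a standard error of 0.37 (limma, adjusted p = 0.9994). Without ZD8 the log2 fold change was 0.22 and without ZD2, the lowest ovary, 0.18. LGR5 and LGR6, stem cell markers in other tissues, were highest in ZD8 (0.425 and 0.563 FPKM) and at most 0.0797 and 0.0782 FPKM in the other ovaries.

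Inside the cell, CTNNB1 had the highest mean of all members but DKK3, and in ZD8 it was above DKK3 too. It was at 142, 134 and 138 FPKM in ZD2, ZD3 and ZD12 and at 105, 108 and 131 in ZD5, ZD7 and ZD8. The SLS values lay above the LLS values, ZD8 being close to ZD3. The log2 fold change was -0.27 with a standard error of 0.29 (limma, adjusted p = 0.9994; exact two-sided permutation p = 0.1), and -0.37 without ZD8.

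AXIN2, a scaffold of the beta-catenin destruction complex and itself a target of the pathway, was at 2.74, 2.51 and 5.92 FPKM in ZD2, ZD3 and ZD12 and at 1.80, 1.77 and 10.9 in ZD5, ZD7 and ZD8. ZD8 was highest and ZD12 next, and without ZD8 the LLS values lay below the SLS values. AXIN1, the constitutive scaffold, was at 5.93, 4.09 and 8.55 FPKM in SLS and at 4.73, 5.65 and 13.0 in LLS. Its log2 fold change was 0.22 with a standard error of 0.41 (limma, adjusted p = 0.9994) and turned to -0.17 without ZD8.

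TCF7L2 was the most abundant of the 4 DNA-binding partners of beta-catenin, at 6.70, 7.33 and 8.99 FPKM in SLS and 5.87, 6.47 and 21.5 in LLS. TCF7L1 was at 2.23, 2.28 and 2.67 FPKM in SLS and at 1.81, 2.003 and 9.53 in LLS. In both, ZD8 was more than 2-fold above the highest of the others, and ZD5 and ZD7 were the 2 lowest ovaries.

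TCF7 was at 1.20, 1.18 and 1.96 FPKM in SLS and at 0.982, 0.893 and 3.13 in LLS. LEF1 was at 1.81, 2.31 and 1.91 FPKM in SLS and at 1.68, 2.23 and 3.17 in LLS, with ZD8 the highest and the rest overlapping. The sum of the 4 factors was 10.4 to 15.5 FPKM in 5 ovaries and 37.3 FPKM in ZD8, but TCF7L2 kept a share of 55.8% to 57.9% of it in all 6.

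Over the 32 tested members, ZD8 held the highest value in 23 (71.9%, against 44.6% of all genes tested) and the lowest in 6. All 5 members that passed the filter only through ZD8 are in this count by that choice, and without them it was 18 of 27 (66.7%, against 43.7% of all genes so filtered). Among the other Wnt pathway genes ZD8 held the highest value at a like share, in 31 of 45 (68.9%), or 30 of 44 (68.2%) with the same filter. It was more than 2-fold above the highest of the other 5 ovaries in 11 members (34.4%, against 10.3% of all genes): FZD8, ROR1, RSPO2, RSPO3, SFRP2, TCF7L1, TCF7L2, WNT2B, WNT4, WNT6 and WNT9A. Of these, RSPO2, RSPO3, WNT2B, WNT4 and WNT6 passed the filter only through ZD8, and without them 6 of 27 (22.2%, against 9.44% of all genes so filtered) were left. It was more than 2-fold below the lowest of the others in 3 (DKK2, DKK3 and WNT10B, against 7.5% of all genes, or 7.67% with the filter on the other 5 ovaries). These counts describe 1 library, so no test was made. Beside them stand the luteal sum of 122.9 FPKM and the oocyte sum of 129.3 FPKM in ZD8, whose part in the counts was not tested.

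When ZD8 was set aside, ZD12 held the highest of the other 5 values in 15 of 32 members (46.9%, against 39.6% of all genes tested), among the ligands in 6 of 7. With the filter on the 5 ovaries themselves it was 11 of 27 (40.7%, against 39.2% of all genes so filtered), a share near that of genes at large, and 3 of 4 ligands. ZD12 was also the ovary of the 5 with the highest granulosa (240.2 FPKM), theca (74.5 against at most 18.9 FPKM) and oocyte sums (23.3 against at most 12.3 FPKM), and the part of these was not tested.

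The rest of the pathway was read from a list of 58 other Wnt genes, of which 55 were analysed here and 45 tested. Limma called 0 of them, and 0 reached an unadjusted p below 0.05, with voom also calling 0. In 36 the mean log2 level was higher in LLS and in 9 lower (median log2 fold change 0.14). Without ZD8 the split was 15 and 29 among 44 (median -0.10). Over all genes tested it was 6446 and 5814 (median 0.02), and without ZD8 4099 and 7886 (median -0.10), so genes at large turned as well. ZD8 was more than 2-fold above all others in 8 of 45 (17.8%, against 10.3% of all genes tested): PTK7, TPBG, NKD1, DACT1, DACT3, TLE4, VANGL2 and PRICKLE2. NKD1 passed the filter only through ZD8, which leaves 7 of 44 (15.9%, against 9.44% of all genes so filtered). It was more than 2-fold below in CTHRC1.

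PTK7, a co-receptor of the planar polarity branch, was at 37.9, 17.9 and 38.9 FPKM in ZD2, ZD3 and ZD12 and at 21.1, 32.1 and 87.0 in ZD5, ZD7 and ZD8. WLS, which carries WNT proteins to the cell surface, was even across the ovaries, from 21.9 to 33.99 FPKM. The co-receptors LRP5 (9.60 to 26.5 FPKM) and LRP6 (14.7 to 30.8 FPKM) were highest in ZD8 as well.

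A list of 14 target genes of beta-catenin, of which AXIN2, LEF1, TCF7, LGR5 and DKK1 are members, held 8 tested genes and 0 called. Among the tested ones AXIN2, LEF1, TCF7, NKD1 and MYC were highest in ZD8, whereas ZNRF3, CCND1 and CD44 were lowest there, and 44.6% of all genes tested were highest in ZD8. NKD1, an inhibitor of Dishevelled that passed the filter only through ZD8, was at 1.29, 0.391 and 2.45 FPKM in SLS and at 0.319, 0.939 and 7.51 in LLS. CCND1, a cyclin, was at 29.6, 28.9 and 22.3 FPKM in SLS and at 22.3, 32.7 and 8.94 in LLS. CD44, a cell surface glycoprotein, was at 19.1, 18.5 and 15.1 FPKM in SLS and at 12.3, 14.99 and 4.27 in LLS, and its groups did not overlap (1 of the 8, against 3.17% of all genes lower in LLS).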

How the data were processed

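Total RNA of the 6 ovaries was depleted of ribosomal RNA and sequenced, 1 library per ovary. The authors trimmed reads with NGSQCToolkit, mapped them with HISAT2 to Sscrofa11.1 and deposited FPKM values per gene. The counting program and its strand setting are not given in the sources used here. A miRNA table was not used here. Labels give the groups. The p-values measure the spread between single libraries of different ovaries.

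Because the deposited FPKM values are not counts, the test was limma 3.58.1 (R 4.3.3, trended variance) on log2(FPKM + 1), with genes at 1 FPKM or more in at least 3 libraries, Benjamini-Hochberg adjustment over all 12260 genes tested, and a call at adjusted p below 0.05 and absolute log2 fold change above 1. A fold change on this scale understates the change of low genes. Multiplying each deposited FPKM value by the library size, read from the smallest steps of the values, and the longest transcript length gave whole reads, within 0.001 reads, for 23455 of 23564 genes (99.5%) and for all 53 members. Limits for genes without reads are 3 reads and cover counting error only. The fit was also run on simulated data, whose outcome is not given and is not used here.

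All members were accounted for, those at 1 FPKM or more somewhere by ovary; fold changes were given for members whose groups did not overlap, the 5 smallest p and the highest mean of each role. A fold change of other members appears only as drawn. The members and lists were chosen with earlier results of these data known. Alternatives were another pseudocount (0.1), no filter, equal library sums, median centring, array weights, voom on the recovered reads and leaving out each ovary.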

Additional observations from a re-analysis of the deposited data

How the results depend on the processing

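No member was called under any alternative that kept the adjusted threshold. At an unadjusted p below 0.05 (limma) there were 2 members and 216 genes in all. These counts moved to 7 members and 1252 genes with array weights. Without ZD8 they were 4 of 27 members and 709 of 11985 genes, and without ZD2 they were 2 of 29 members and 91 of 12088 genes. Over all genes, 13 were called with array weights (limma; ZD8 weighed 0.135, the others 0.597 to 2.27) and 0 to 20 when 1 ovary was left out, the 20 without ZD8. Without ZD8, 14 of 32 members in place of 3 did not overlap between the groups, where the shares of all genes also rose (higher in LLS from 1.95% to 7.44%, lower from 3.17% to 11.7%). With the filter on the other 5 ovaries, chosen after seeing the data, it was 11 of 27, and the members with ZD8 more than 2-fold outside the others were 9 of 27 in place of 14 of 32. WNT5A stayed higher in LLS (log2 fold change 1.18 to 1.62) and DKK2 lower (-2.83 to -1.56) under all alternatives run, with limma adjusted p from 0.104 to 1 and from 0.0843 to 1. CTNNB1, SFRP5, ROR1, LGR4 and WNT10B kept their direction too, with 1 ovary left out at -0.37 to -0.21, -0.84 to -0.27, 0.21 to 0.86, 0.18 to 0.70 and -1.04 to -0.22. WNT10B was at -1.43 with a pseudocount of 0.1 and at -1.46 with voom, and SFRP5 at -0.94 and -1.08. AXIN1, DKK3 and FZD4 did not, and the cause was not tested. AXIN1 was at -0.30 with array weights and at -0.17 to 0.47 with 1 ovary left out. DKK3 was at 0.10 with array weights and at -1.26 to 0.0748 with 1 ovary left out. FZD4 was at 0.00086 with equal library sums, at 0.0418 with array weights and at -0.0635 to 0.0822 with 1 ovary left out. ZD8 had the fewest reads, which limits low members there most. No paired analysis was possible because the ovaries came from different sows and the labels give no numbers that pair them.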

Other observations

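Several WNT genes lie beside another WNT gene in the genome (Sscrofa11.1), and in each of the 4 pairs within 100000 bases at least 1 gene stayed below 1 FPKM in all ovaries. Low genes were common in the family, as only 9 of the 19 WNT ligands reached 1 FPKM in any ovary, so this is no trait of the pairs. WNT6 and WNT10A lie 7844 bases apart on chromosome 15, and their highest levels were 9.46 FPKM and 0.0793 FPKM, both in ZD8. WNT9A and WNT3A lie 25631 bases apart on chromosome 2, with a highest level of 12.7 FPKM for WNT9A and no read for WNT3A. WNT3 and WNT9B lie 27848 bases apart on chromosome 12, at most 0.693 and 0.149 FPKM, with WNT3 highest and WNT9B lowest in ZD8. WNT1 and WNT10B, which overlap on chromosome 5, were both lowest in ZD8 (1 and 20 reads), whereas WNT1 had 49 and 42 reads in the LLS ovaries ZD5 and ZD7 and at most 9 in the SLS ovaries.

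WIF1, a secreted WNT inhibitor outside the member rule, was at 0.191, 0.466 and 1.21 FPKM in ZD2, ZD3 and ZD12 and at 0.418, 0.777 and 4.10 FPKM in ZD5, ZD7 and ZD8. FRZB, a relative of the SFRP genes, was at 67.4, 21.2 and 42.1 FPKM in SLS and at 16.3, 27.8 and 38.7 FPKM in LLS, and DKKL1 was the 1 of 45 other pathway genes tested whose groups did not overlap (higher in LLS, as in 1.95% of all genes tested), at 12.3, 10.5 and 9.09 FPKM in SLS and 17.4, 17.3 and 12.6 FPKM in LLS.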
